A study of Mus musculus with 6 samples.

Results

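The integrin alpha subunits were followed through 3 states of EpH-4 (EpH4), an immortalized, non-cancer mouse mammary epithelial cell line. The E cells were never given TGFβ1, the M cells were kept in medium with TGFβ1 for 7 days, and the RE (reverted epithelial) cells had the same 7 days followed by 4 days in normal medium. RNA of 2 biological replicates per state was sequenced, which gave 6 libraries. All states came from this 1 cell line, so the replicates carry no spread between animals or lines, and the RE cells had also been in culture after treatment for longer than the M cells. The genes were taken by symbol, 10 in all, of which 9 were found among the 17428 genes of the deposited table. *Itga4* was not analysed here.

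Integrins are cell surface receptors made of an alpha and a beta chain that anchor the cell to the extracellular matrix and pass signals in both directions. The alpha chain largely sets which matrix protein is bound. *Itga3* and *Itga6* code for the laminin receptors of epithelial cells, which sit on a basement membrane. *Itga5* codes for the main fibronectin receptor and *Itgav* for a receptor of vitronectin, fibronectin and latent TGFβ, and both read the Arg-Gly-Asp (RGD) motif, as does *Itga8*. *Itga1*, *Itga2* and *Itga11* code for collagen receptors, and *Itga4* and *Itga9* for receptors of Vcam1, osteopontin or tenascin. A switch from laminin to fibronectin receptors is a known feature of the epithelial-to-mesenchymal transition.

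The libraries held the equivalent of 35782513 to 47928557 reads of 50 bases. The values behaved as numbers of sequenced bases, and are given as ppm, the bases on a gene per 1000000 bases of its library after TMM scaling. Coverage of 150 bases, or 3 reads' worth, corresponded to 0.0635 to 0.0781 ppm and was taken as the detection floor, which covers counting error only. The E libraries were less alike than the others, since the log2 difference between replicates had an SD over genes of 0.558 in E, 0.318 in M and 0.309 in RE. The epithelial marker *Cdh1* was at 278 and 327 ppm in the E libraries and *Krt18* at 880 and 611, whereas *Krt19* was at no more than 0.162 in any library, and *Epcam* was not analysed here. Among leukocyte markers, *Ptprc* and *Cd3e* were at or under the floor in all libraries, *Cd68* was at 5.17 to 9.18 ppm, and *Csf1r* was at 1.27 to 2.08 ppm in the E and RE libraries and at 25.8 and 29.9 in the M libraries. In bulk RNA, fewer cells with a transcript and less of it per cell cannot be told apart.

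Set per kilobase of annotated exon, so that subunits can be compared with each other, *Itga3* led the alpha subunits of the E cells by a wide margin, at 160 and 261 ppm per kb in the 2 libraries. *Itga5* followed at 19.6 and 24.2, *Itga6* at 13.5 and 15.3 and *Itgav* at 7.00 and 12.4. *Itga2*, *Itga11* and *Itga1* were all below 1 ppm per kb. The order of these 4 leading subunits held in each E library, and no neighbours among them overlapped. In the M cells *Itga5*, at 247 and 256 ppm per kb, stood level with *Itga3*, at 262 and 223. These 2 did not differ beyond their spread, and their order was exchanged when the longest transcript was used as the length. *Itgav* came next at 86.5 and 86.0, then *Itga2* at 25.5 and 30.1 and *Itga6* at 17.5 and 16.8. The RE cells were led again by *Itga3* (158 and 180 ppm per kb), with *Itga5* at 40.9 and 39.0, *Itgav* at 29.8 and 27.8 and *Itga6* at 25.1 and 20.4.

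These levels make up different mixtures of receptor RNA. Of the summed ppm per kb of the 17 alpha subunits in the table, the laminin receptors (*Itga3*, *Itga6* and *Itga7*) took 84.6% and 86.5% in the E libraries, 44.3% and 39.5% in the M libraries and 69.5% and 72.8% in the RE libraries. The RGD receptors (*Itga5*, *Itgav*, *Itga8* and *Itga2b*) took 14.1% and 12.4%, then 51.5% and 55.1%, and then 27.7% and 25.0%. No library of 1 state overlapped with those of another in either share, and the RE libraries lay between the E and M libraries. The sum over the 17 genes was itself 209 and 322 ppm per kb in E, 651 and 623 in M and 265 and 277 in RE. That of the laminin receptors was 176 and 279 in E, 288 and 246 in M and 184 and 201 in RE. The RGD receptors summed to 29.5 and 39.9, 335 and 343, and 73.4 and 69.3 ppm per kb. The lower share of the laminin receptors in M thus came without a lower level. The shares were not tested.

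**Figure D1:**
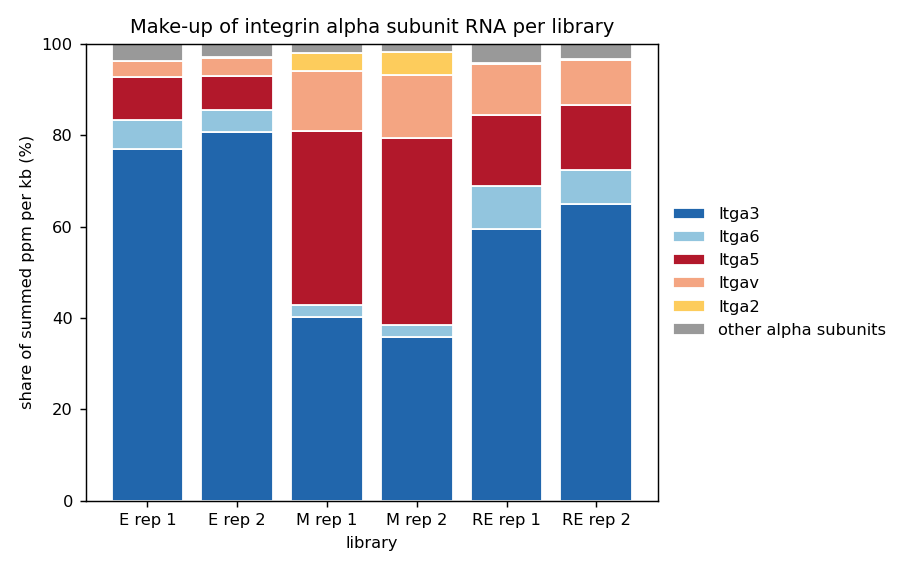
Share of each integrin alpha subunit in the summed ppm per kb of all 17 alpha subunits, as stacked bars to 100%, 1 bar per library. *Itga3* takes 77.0% and 80.8% in the E libraries and 40.2% and 35.8% in the M libraries, where *Itga5* takes 37.9% and 41.0%.

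Of the 10 subunits, 7 were tested, and each of these 7 had at least 500 bases in every library. A gene was called differentially expressed (a DEG) when limma gave it a log2 fold change (log2FC, here with its standard error or 95% interval) beyond 1 or −1 and a p below 0.01 after Benjamini-Hochberg adjustment over 13893 genes. In E vs. M, 4 of the 7 were called higher in the M cells and 0 lower, against 8.58% of all genes tested called higher, 8.39% lower and 17.0% in either direction. In M vs. RE, the same 4 were called lower in the RE cells (4.79% of all genes) and 1 was called higher (8.08% of all genes, 12.9% in either direction). In E vs. RE, 2 were called higher in the RE cells (6.20% of all genes) and 0 lower (3.17%, and 9.37% in either direction). These comparisons share libraries pairwise and are not independent of each other. The median log2FC of the 7 was 2.51 for E vs. M, −1.58 for M vs. RE and 0.65 for E vs. RE, and that of all genes tested was 0.0013, −0.017 and 0.0079. Scaling by library totals moved the median of all genes to −0.29 for E vs. M and 0.18 for M vs. RE and changed the split of higher and lower DEGs from 1192 and 1166 to 802 and 1829 in E vs. M, and from 1123 and 666 to 1405 and 500 in M vs. RE. The 4, 5 and 2 subunits called did not change in number under that scaling. The E vs. RE calls changed with the libraries fitted. A fit of only the E and RE libraries called 0 of the 7, where 4 had an unadjusted p below 0.05 by limma, and 525 genes in all in place of 1302. Without RE replicate 1 limma called 0 of the 7 and 44 genes in all, and without RE replicate 2 it called 0 and 160, again with 4 of the 7 at an unadjusted p below 0.05 each time. Without M replicate 1 or 2 it called 1 of the 7 (673 and 676 genes), whereas without E replicate 1 it called 2 (1707 genes) and without E replicate 2 it called 3 (2348 genes). The M vs. RE calls remained at 5 without an E library and were 2 or 3 without an M or RE library, and the E vs. M calls were 3 without an M library and 4 otherwise.

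**Figure D2:**
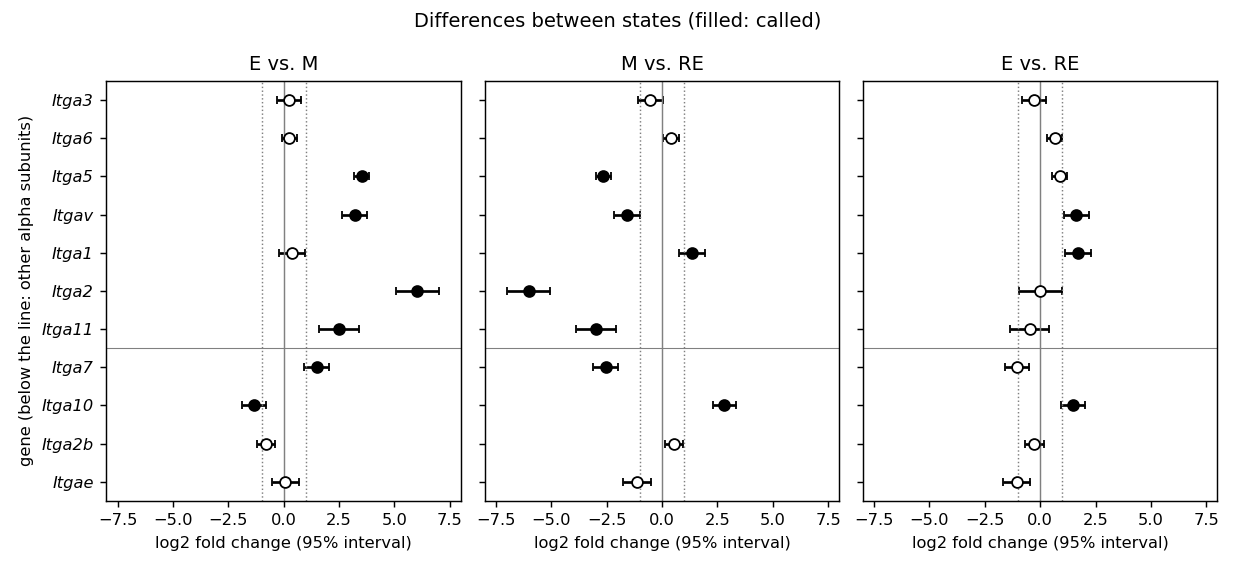
Log2 fold change with its 95% interval from limma for 11 tested alpha subunits in each comparison, filled where called, with dotted lines at the fold threshold. In E vs. M, *Itga2*, *Itga5*, *Itgav*, *Itga11* and, below the line, *Itga7* are called to the right. In M vs. RE the same genes are called to the left.

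Among the laminin receptors, *Itga3* codes for the alpha chain that joins the β1 chain in epithelial basal adhesions. Its coverage was 843 and 1369 ppm in the E libraries, 1375 and 1170 in the M libraries and 828 and 946 in the RE libraries. The E libraries spanned nearly the whole range of the other 4. *Itga3* ranked between percentiles 98.2 and 99.4 of 11279 genes by ppm per kb in all libraries. It was not called in any comparison, with a log2FC of 0.24 from E to M (95% interval −0.32 to 0.80, limma adjusted p = 0.45), −0.52 from M to RE (−1.08 to 0.04, adjusted p = 0.14) and −0.28 between E and RE (−0.84 to 0.28, adjusted p = 0.408). The sign in E vs. M turned to −0.11 without E replicate 1 and to −0.061 with library totals, and in E vs. RE to 0.074 without E replicate 2.

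*Itga6* codes for the alpha chain of the hemidesmosome, where it pairs with the product of *Itgb4*. It was at 58.8 and 66.8 ppm in the E libraries, 76.5 and 73.2 in the M libraries and 109 and 88.9 in the RE libraries. The states did not overlap, and the RE libraries were the highest. No difference was called, since the log2FC was 0.26 from E to M (−0.094 to 0.61, limma adjusted p = 0.206), 0.40 from M to RE (0.048 to 0.75, adjusted p = 0.0822) and 0.65 between E and RE (0.30 to 1.004, adjusted p = 0.0165). The first of these was −0.044 with library totals. Its partner *Itgb4* was at 525 and 678, 792 and 913, and 625 and 633 ppm and was not called in any comparison either.

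Among the RGD receptors, *Itga5* was at 85.9 and 106 ppm in the E libraries, 1082 and 1120 in the M libraries and 179 and 171 in the RE libraries. The M libraries stood far above all others, and the RE libraries above both E libraries. The mean rose 11.5-fold from E to M (log2FC 3.53 ± 0.15, limma adjusted p = 9.79e-06) and was 6.29-fold lower in RE than in M (−2.65 ± 0.15, adjusted p = 2.43e-05). RE exceeded E by 0.87 on the log2 scale (0.54 to 1.21, limma adjusted p = 0.00496), which is under the fold threshold and was therefore not called. Without E replicate 2 this difference was 1.03 and was called, and it was also called at a fold of 1.5. *Itga5* moved from percentiles 70.5 and 75.9 of genes in E to 98.8 and 99.1 in M.

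*Itgav* was at 49.4 and 87.8 ppm in the E libraries, 609.8 and 607 in the M libraries and 210.5 and 196 in the RE libraries. Both RE libraries lay above the E libraries and below the M libraries, with no overlap. The rise from E to M was 8.87-fold (log2FC 3.21 ± 0.25, limma adjusted p = 8.28e-05). The decrease that followed in the RE cells (−1.58 ± 0.25, adjusted p = 0.00265) left the mean of the RE cells 2.96-fold above that of the E cells (log2FC 1.62 ± 0.25, limma adjusted p = 0.0035). Both of these calls were kept without E replicate 1 or E replicate 2 and lost without any 1 of the M or RE libraries. In the latter fits, the adjusted p by limma ran from 0.0266 to 0.0297 in M vs. RE (log2FC −1.63 to −1.53). It ran from 0.0124 to 0.0493 in E vs. RE, with a log2FC of 1.57 to 1.68. A fit of only the E and RE libraries gave an adjusted p of 0.0169 by limma. The unequal E libraries moved the E vs. RE value from 1.21 without E replicate 1 to 2.04 without E replicate 2, and the E vs. M value from 2.79 to 3.60.

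**Figure D3:**
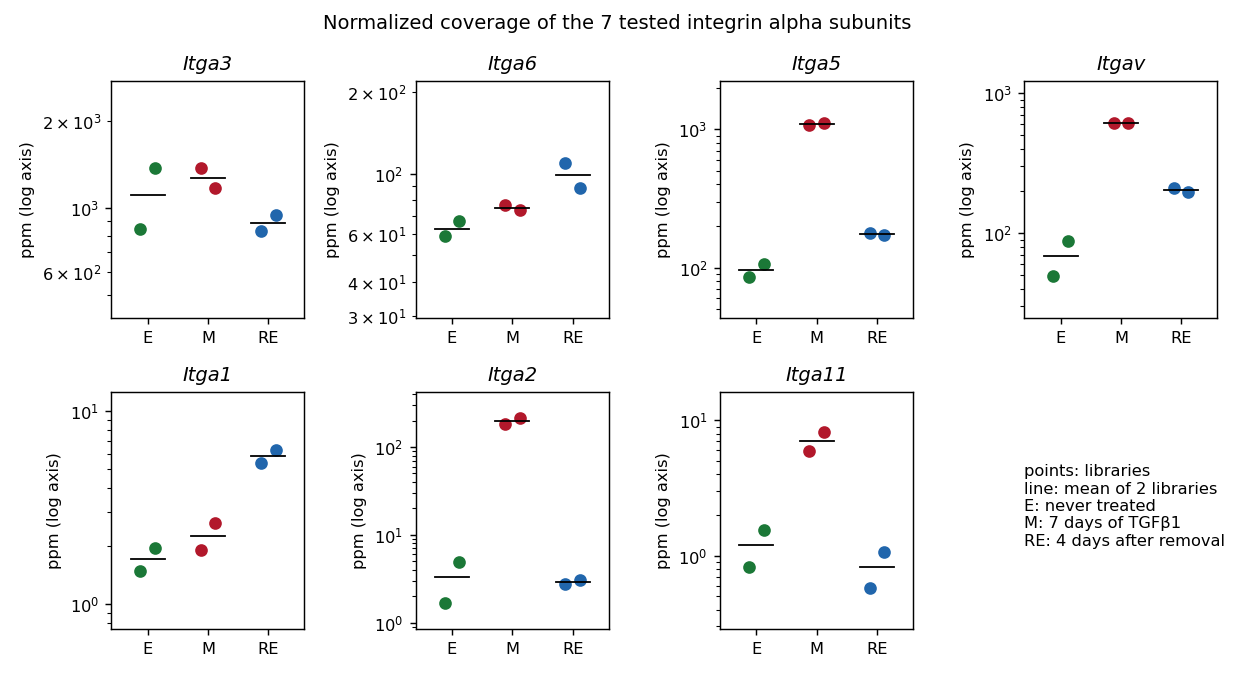
Normalized coverage in ppm on log axes for the 7 tested alpha subunits, with 1 point per library and a line at the mean of each state. *Itga2*, *Itga5*, *Itgav* and *Itga11* peak in the M libraries, *Itga1* is highest in the RE libraries, and *Itga3* and *Itga6* span narrow ranges.

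*Itga2*, which codes for a collagen receptor of epithelial cells and platelets, had the widest range. It was at 1.69 and 4.94 ppm in the E libraries, 181 and 214 in the M libraries and 2.78 and 3.08 in the RE libraries. The RE libraries fell inside the span of the E libraries. From E to M the mean rose 59.5-fold (log2FC 6.03 ± 0.42, limma adjusted p = 5.78e-05), and it was 67.3-fold lower in RE than in M (−6.02 ± 0.42, adjusted p = 6.0251e-05). The E vs. M value was 5.29 without E replicate 1 and 6.76 without E replicate 2. No difference was called between E and RE (log2FC 0.011, 95% interval −0.96 to 0.99, limma adjusted p = 0.986), and the value was −0.73 without E replicate 1 and 0.76 without E replicate 2. By ppm per kb *Itga2* ranked between percentiles 11.6 and 18.0 in the E and RE libraries and at 74.5 and 79.2 in the M libraries.

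*Itga11* codes for a receptor of fibrillar collagen best known from fibroblasts. It stayed low throughout, at 0.825 and 1.56 ppm in the E libraries, 5.95 and 8.15 in the M libraries and 0.576 and 1.07 in the RE libraries. The M libraries were above all others, and the E and RE libraries overlapped. It rose 5.90-fold from E to M (log2FC 2.51 ± 0.38, limma adjusted p = 0.00197) and was 8.57-fold lower in RE than in M (−2.99 ± 0.38, adjusted p = 0.00112). E vs. RE was not called (−0.48, −1.38 to 0.42, limma adjusted p = 0.375). The E vs. M call was lost without M replicate 1 (limma adjusted p = 0.0141) or M replicate 2 (0.0249), and the M vs. RE call without M replicate 2 (0.0165) or RE replicate 1 (0.0138). The E vs. M value was 2.08 without E replicate 1 and 2.91 without E replicate 2.

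*Itga1*, the other collagen receptor gene of the group, did not follow this course. It was at 1.49 and 1.94 ppm in the E libraries, 1.90 and 2.61 in the M libraries and 5.35 and 6.27 in the RE libraries. The E and M libraries overlapped, and both RE libraries were above all others. The mean in RE was 3.39-fold that in E (log2FC 1.71 ± 0.25, limma adjusted p = 0.00318) and 2.57-fold that in M (1.34 ± 0.25, adjusted p = 0.00634), whereas E vs. M was not called (0.37, −0.22 to 0.96, adjusted p = 0.269). The E vs. RE call was lost without RE replicate 1 (limma adjusted p = 0.0366), without RE replicate 2 (0.0378) and in a fit of only the E and RE libraries (0.0121). The M vs. RE call was lost without any 1 of the 4 libraries compared (adjusted p by limma from 0.0229 to 0.0684, log2FC 1.12 to 1.56) and without the filter on low values (0.0148). Per kilobase *Itga1* remained a minor subunit in the RE cells, at 0.488 and 0.572 ppm per kb.

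*Itga8* and *Itga9* were hardly covered. *Itga8* had 100 and 200 bases in the E libraries, 0 in both M libraries, and 450 and 0 in the RE libraries. *Itga9* had 100 and 0 bases in the E libraries, 0 in both M libraries, and 0 and 19 in the RE libraries. Both fell short of the filter and were not tested in the main fit. Without the filter 9 subunits were tested, and neither *Itga8* nor *Itga9* was called in any comparison. A fall or a small change in either was not detectable at this depth.

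Among the 7 tested subunits, *Itga2*, *Itga5*, *Itga11* and *Itgav* rose and fell together. The 250 bases before the RefSeq start of each (GRCm38.p6, 5′ to 3′ along the gene) are shown here to set their promoters side by side. Capitals mark the motif matches found. The windows are *Itga2* at chr13:114932101-114932350 (minus strand), *Itga5* at chr15:103366792-103367041 (minus strand), *Itga11* at chr9:62677605-62677854 (plus strand) and *Itgav* at chr2:83724147-83724396 (plus strand). The authors mapped to an older build, in which these coordinates do not apply.
Itga2: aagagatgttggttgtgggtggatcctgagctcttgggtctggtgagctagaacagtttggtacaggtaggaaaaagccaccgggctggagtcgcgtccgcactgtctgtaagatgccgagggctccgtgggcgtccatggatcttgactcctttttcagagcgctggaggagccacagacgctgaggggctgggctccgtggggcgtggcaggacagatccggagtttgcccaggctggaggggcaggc
Itga5: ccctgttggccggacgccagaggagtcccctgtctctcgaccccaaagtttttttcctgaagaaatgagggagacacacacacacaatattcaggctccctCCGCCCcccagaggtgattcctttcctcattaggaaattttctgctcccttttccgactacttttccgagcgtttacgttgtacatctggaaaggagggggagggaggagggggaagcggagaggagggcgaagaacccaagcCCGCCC
Itga11: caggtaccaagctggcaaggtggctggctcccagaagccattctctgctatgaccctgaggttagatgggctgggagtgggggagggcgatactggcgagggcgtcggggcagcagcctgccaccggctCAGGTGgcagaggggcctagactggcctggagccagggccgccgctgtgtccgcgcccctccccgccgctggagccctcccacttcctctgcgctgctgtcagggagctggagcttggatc
Itgav: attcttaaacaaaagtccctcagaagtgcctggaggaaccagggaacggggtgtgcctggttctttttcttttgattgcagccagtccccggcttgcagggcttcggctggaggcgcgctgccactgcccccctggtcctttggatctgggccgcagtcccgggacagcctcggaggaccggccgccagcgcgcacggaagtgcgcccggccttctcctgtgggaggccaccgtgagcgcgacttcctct

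Both strands were searched for 4 motifs. The AP-1 site TGANTCA, held by 6.75% of 32851 promoter windows of the same length, had 0 matches in the 4 promoters, and the Smad palindrome GTCTAGAC (0.167% of windows) had 0 as well. The E-box CAGGTG, bound by Zeb and Snail factors, is held by 17.2% of windows and was found 1 time, in *Itga11*, starting at −121 relative to the RefSeq start. The GC box GGGCGG, held by 32.7%, was found 2 times in *Itga5*, at −149 and −6, and in none of the other 3. None of these letter matches was shared by 2 of the promoters. The GC content was 60.8% for *Itga2*, 55.6% for *Itga5*, 68.4% for *Itga11* and 64.4% for *Itgav*, all above the median of 52.4% over all windows.

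The genes nearest in pattern were found from the root mean square difference of mean-centred log2 values over the 6 libraries, which share depth and scaling across genes. For *Itgav* these were *Ncam1* (difference 0.097 on the log2 scale), *Ebf1* (0.11) and *Cxcl12* (0.14). *Ncam1*, a neural cell adhesion molecule, was at 49.5 and 106 ppm in the E libraries, 626 and 658 in the M libraries and 239 and 199 in the RE libraries. For *Itga5* the nearest were *Col5a1* (0.13), *Glipr2* (0.22) and *Arnt2* (0.24), with *Col5a1*, a fibrillar collagen chain, at 0.717 and 1.06, 12.1 and 14.0, and 1.83 and 1.63 ppm. For *Itga2* they were *AC160982.5-1* (0.48), *Ret* (0.49) and *Tll1* (0.50), all less close. Of these, *AC160982.5-1* and *Tll1* were at no more than 0.127 ppm in the E and RE libraries and passed the filter only through the M libraries. *Ret*, a receptor tyrosine kinase, was at 0.507 and 0.643, 32.5 and 32.8, and 0.830 and 0.749 ppm.

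Of the other 8 alpha subunits, 4 were tested. *Itga7*, a laminin receptor of muscle, was at 10.1 and 12.4 ppm in the E libraries, 36.4 and 27.3 in the M libraries and 6.35 and 4.45 in the RE libraries. It was called higher in M than in E (log2FC 1.49, limma adjusted p = 0.00226) and lower in RE than in M (−2.54, adjusted p = 0.000228). *Itga10*, a collagen receptor of cartilage, went the other way, at 8.90 and 10.1, 3.12 and 4.32, and 31.2 and 22.7 ppm. It was lower in M than in E (−1.35, limma adjusted p = 0.00332) and higher in RE than in M (2.82, adjusted p = 0.000124) and than in E (1.48, adjusted p = 0.00397). In E vs. M, limma called 0 of the 4 without M replicate 1 or 2, with 3 at an unadjusted p below 0.05 each time. The E vs. RE call was lost without RE replicate 1 or 2, again with fewer of all genes called. A fit of only the E and RE libraries called 0 of the 4, with 3 at an unadjusted p below 0.05 by limma, and 525 of 13893 genes in all. *Itga2b* and *Itgae* were not called in any comparison, and the leukocyte subunits *Itgad*, *Itgal*, *Itgam* and *Itgax* were at no more than 0.602 ppm in any library and were not tested.

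The beta chains that these alpha subunits pair with were all tested, 8 of 8. In E vs. M, 3 were called higher in M (*Itgb1*, *Itgb3* and *Itgb5*) and 1 lower (*Itgb2*), against 8.58% and 8.39% of all genes. Without either M library in turn *Itgb3* was no longer tested, and fewer of the other beta chains were called. *Itgb1*, the partner of most alpha subunits described here, was at 784 and 843 ppm in the E libraries, 2473 and 2317 in the M libraries and 1112 and 1086 in the RE libraries, with a log2FC of 1.56 for E vs. M (limma adjusted p = 0.000208) and −1.12 for M vs. RE (adjusted p = 0.00117). The partners of *Itgav* did not share one course. *Itgb3* was at no more than 0.0231 ppm in the E libraries, under the floor, at 10.5 and 11.8 in the M libraries and at 0.0838 and 0.0678 in the RE libraries, and it passed the filter only through the M libraries. *Itgb5* was at 332 and 312, 762 and 698, and 665 and 607 ppm, higher in M than in E (1.18, limma adjusted p = 0.000571) and, in the RE cells, above E by 0.98 (adjusted p = 0.0027), just short of the fold threshold. *Itgb6*, whose product activates latent TGFβ in epithelia together with that of *Itgav*, was lower in RE than in M (−1.76, limma adjusted p = 0.00227). *Itgb8* was at 1.33 and 2.72, 2.10 and 3.30, and 19.8 and 11.7 ppm and was called higher in RE than in M (2.49, limma adjusted p = 0.0031) and E (2.93, adjusted p = 0.00241). In M vs. RE, 1 beta chain was called higher and 3 lower (8.08% and 4.79% of all genes). In E vs. RE, 1 was called higher (*Itgb8*) and 1 lower (*Itgb2*, the leukocyte beta chain), against 6.20% and 3.17%. Without RE replicate 1, limma called 0 beta chains in E vs. RE (3 at an unadjusted p below 0.05), and likewise 0 without RE replicate 2 (4 at that p). In M vs. RE it called 0 without either M library in turn (4 at that p each time), where *Itgb3* was no longer tested, and 1 lower without RE replicate 1 or 2.

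**Figure D4:**
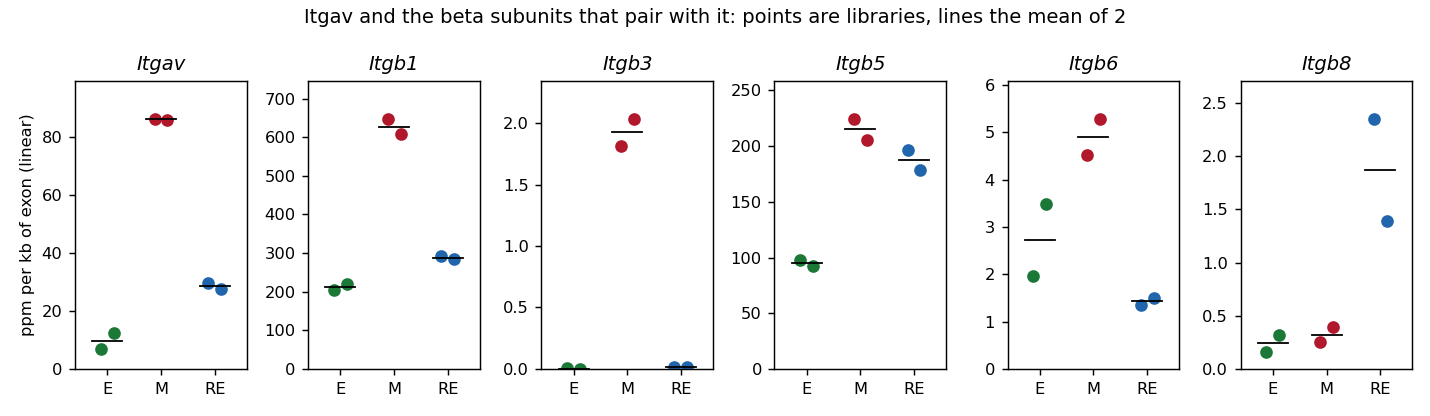
Levels of *Itgav* and of the 5 beta chains known to pair with it, in ppm per kb on linear axes that start at 0, with 1 point per library and a line at the mean of each state. *Itgav*, *Itgb1*, *Itgb3* and *Itgb6* are highest in the M libraries, *Itgb5* is high in the M and RE libraries, and *Itgb8* is highest in the RE libraries.

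The ligands of these receptors were taken from a list of 20 genes, of which 16 were tested. In E vs. M, 13 were called higher in M and 0 lower (8.58% and 8.39% of all genes). The 3 with the largest change were *Tnc*, tenascin C (log2FC 7.33, limma adjusted p = 9.34e-06), *Postn*, periostin (4.28), and *Col1a1*, a chain of type I collagen (3.93). *Lama5*, a laminin chain gene, was at 1612 and 3000 ppm in the E libraries and 957 and 968 in the M libraries. Its log2FC of −1.19 was not called (limma adjusted p = 0.011), and neither was *Npnt* at −1.92 (adjusted p = 0.0252). An adjusted p threshold of 0.05 called 2 ligands lower in M. Library totals, library weights and blocking on replicate number each called 1 lower, so the 0 depended on the settings. Fewer were called higher without M replicate 1 or 2. In M vs. RE, 6 were called lower in RE and 0 higher (4.79% and 8.08% of all genes), among them *Tnc* (−5.77) and the laminin chain gene *Lama3* (−3.22). In E vs. RE, 8 were called higher in RE and 0 lower (6.20% and 3.17%), led by *Postn* (3.37), *Col3a1* (3.13) and *Col1a1* (2.86). Of these, *Col3a1* was low, at 0.255 and 0.156 ppm in the E libraries and 2.80 and 2.31 in the RE libraries. A filter to be met in every library left it out and called 7 of 14 ligands higher. The medians were 2.35, −0.92 and 1.38 in the 3 comparisons. The 6 called lower in M vs. RE were 3 without M replicate 1, RE replicate 1 or RE replicate 2, 4 without M replicate 2, and 7 without an E library. The 8 called higher in E vs. RE were 5 when only those libraries were fitted. Fewer were called higher without any 1 of the M or RE libraries, and more without an E library. The fit without E replicate 1 also called some ligands lower in RE, so the absence of lower calls depended on that library. *Fn1*, which codes for fibronectin, the ligand of the receptor made with *Itga5*, was at 2379 and 5276 ppm in the E libraries, 18203 and 17943 in the M libraries and 11513 and 10501 in the RE libraries, with a called rise from E to M (2.35, limma adjusted p = 0.00184). The E vs. RE difference of 1.63 was not called (adjusted p = 0.0135).

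Inside the cell, integrin tails are linked to actin by talins, kindlins, vinculin and other adhesion proteins. Of 24 such genes, 23 were tested. In E vs. M, 11 were called higher in M, led by *Tns1* (tensin 1, log2FC 2.598), *Vcl* (vinculin, 2.51) and *Fermt1* (kindlin 1, 2.42), and 1 lower, *Fermt3* (−1.01), the kindlin of blood cells, against 8.58% and 8.39% of all genes. In M vs. RE, 7 were called lower and 0 higher (4.79% and 8.08%), led by *Fermt1* (−2.63), *Ptk2b* (−2.32), a kinase related to focal adhesion kinase, and *Tns1* (−2.06). In E vs. RE, *Vcl* (1.84) and *Lims1* (1.46), which codes for an adaptor of integrin-linked kinase, were called higher and *Fermt3* (−1.12) lower (6.20% and 3.17%). The medians were 1.0001, −0.70 and 0.25. The 1 called lower in E vs. M was no longer called without the filter or with a pseudocount of 1. It was also not called with library weights, with the replicate number as a block or with only those 2 states fitted. The 11 called higher in M were 7 with library totals, 7 without M replicate 1 and 6 without M replicate 2. The 7 called lower in RE were 4 without M replicate 1, M replicate 2 or RE replicate 1, and 8 without an E library. In E vs. RE limma called 1 without M replicate 1 or 2 and in a fit of only those states, and it called 0 without RE replicate 1 (6 at an unadjusted p below 0.05) and 0 without RE replicate 2 (9 at that p).

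Marker genes of other cell types also differed in level between the states. The summed coverage of 6 fibroblast markers was 136 and 165 ppm in the E libraries, 1137 and 989 in the M libraries and 1249 and 1067 in the RE libraries, with *Thy1* at or under the floor throughout and *Lum* not analysed here. This list holds *Col1a1* and *Col1a2*, which also stand among the ligands. Its members did not share one course. *Col1a1*, *Col1a2* and *Pdgfrb* were called higher in M than in E and *Dcn* lower (8.58% and 8.39% of all genes). From M to RE, *Dcn* and *Pdgfra* were called higher and *Col1a1* lower (8.08% and 4.79%). In E vs. RE, all 5 tested were called higher in RE and 0 lower (6.20% and 3.17%), with a median log2FC of 2.45. The summed coverage of 6 myoepithelial markers was 375 and 306, 787 and 893, and 501 and 499 ppm. The median log2FC of the 5 tested was −0.24 for E vs. M, with *Acta2* and *Krt14* called higher and 0 lower (8.58% and 8.39% of all genes). In M vs. RE these 2 genes were called lower and *Trp63* higher (4.79% and 8.08%). The sum of 6 mammary epithelial markers was 1655 and 1347, 1236 and 1253, and 778 and 820 ppm. Of the 5 tested, *Cldn3* and *Cldn7* were called lower in M than in E and 0 higher (8.39% and 8.58% of all genes). *Krt8* was called lower in RE than in M, with 0 higher (4.79% and 8.08%). *Cldn3*, *Cldn7* and *Krt18* were called lower in RE than in E, with 0 higher (3.17% and 6.20%). The sum of 5 leukocyte markers was 6.78 and 10.6 ppm in the E libraries, 33.0 and 36.8 in the M libraries and 7.32 and 7.43 in the RE libraries. The sum of 4 endothelial markers was at most 2.73 ppm. Their part in the differences of the alpha subunits was not tested.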

How the data were processed

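E, M and RE cells gave 2 biological replicates each for whole-transcriptome sequencing. According to the sources, the authors kept unique reads, aligned them with Bowtie and TopHat2 to mouse NCBI m37, and deposited whole numbers for 17428 gene symbols, not normalized. How these were summed per gene is not given in the sources used here, nor are the annotation and tool versions. The deposited values were read as coverage (signal), because their library totals are 1789125650 to 2396427835 and 44.8% to 48.4% of those from 1 to 400 are multiples of 50. The count test of the authors was therefore not used. State and replicate in the column names tied columns to libraries, with 0 columns left over. Depth was 35782513 to 47928557 reads' worth of 50 bases. With 2 libraries per state, p-values measure only the spread between these libraries.

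TMM scaling without weights (trims of 30% for log ratios and 5% for mean level) was done in R 4.3.3. For testing, a gene needed 500 bases in 2 libraries, which 13893 had, and limma 3.58.1 was run on log2(ppm + 0.1) of all 6 libraries by state, with a trend on mean level. This scale understates changes of low genes. Values above 0 are higher in the state named second. GENCODE vM21 (GRCm38) gave exon lengths for 11279 of the tested symbols (81.2%), and RefSeq gave promoter windows for 9 of 10 subunits (not *Itga6*). In GENCODE, *Itga1* and *Itga8* each share exon sequence with a gene outside the table and *Itga7* with *Mettl7b*. The subunits and all lists were chosen with earlier results of these data known. Genes were named by a fixed rule, namely all subunits and other integrin chains, the 3 largest called changes per direction of each other list, and the 3 genes nearest in pattern to the 3 subunits with the widest range. Some genes that this rule names are not reported here. *Fn1* was named after its values were seen. The fit was tested on simulated data. Alternatives were other thresholds, scalings, filters, pseudocounts and library weights, fits of only 2 states, the replicate number as a block, and leaving out each library.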

Additional observations from a re-analysis of the deposited data

How the results depend on the processing

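Of the subunits, 4 were called from E to M, 5 from M to RE and 2 between E and RE. Leaving out 1 library at a time gave 3 to 4, 2 to 5 and 0 to 3, and a fit of only the 2 states compared gave 0 by limma for E vs. RE, where 4 of the 7 had an unadjusted p below 0.05. Among the values of single subunits under all alternatives, 326 kept direction and call, 21 lost a call, 2 gained one and 8 changed sign, none of these a called difference. *Itga2* in E vs. RE was −0.080 with library totals, −0.025 with a pseudocount of 1, and −0.73 to 0.76 when 1 library was left out. *Itga3* was −0.061 for E vs. M with library totals, −0.11 to 0.57 there without 1 library, and −0.63 to 0.074 for E vs. RE without 1 library. *Itga6* was −0.044 for E vs. M with library totals. Among all genes, DEGs numbered 945 to 3362 (E vs. M, in place of 2358), 683 to 2337 (M vs. RE, 1789) and 44 to 2348 (E vs. RE, 1302) without 1 library, and 525 for E vs. RE with only those 2 states. The causes were not tested, though leaving out libraries by construction leaves fewer samples, and the lone library of a state is then assumed to vary like the others. Same-numbered libraries deviated together with a correlation over genes of 0.27 (E, M), 0.058 (E, RE) and 0.12 (M, RE), and the labels do not say how the replicates were run, so no pairing was established. As a block, that number gave 2431, 1830 and 1284 DEGs and changed no call of a subunit. Depth limits *Itga8* and *Itga9*, which were too little covered to pass the filter.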
